A study of Homo sapiens with 6 samples.

Results

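*RBBP4*, its paralogue *RBBP7* and 8 further subunits of the nucleosome remodelling and deacetylase complex (NuRD) and of Polycomb repressive complex 2 (PRC2) were followed in SK-Hep-1 cells with and without knockdown of the lncRNA *RAB30-DT*. The 10 genes were matched by GENCODE Release 44 symbol among the 62700 genes of the deposited tables. They are *RBBP4*, *RBBP7*, *EZH2*, *EED*, *SUZ12*, *CHD4*, *HDAC1*, *HDAC2*, *MTA1* and *MTA2*. The list was chosen by the TPM of *RBBP4*, which were low in the knockdown libraries compared here, so the difference of *RBBP4* is described without a test. The 9 partners were added for their place in the complexes, but with earlier results of these data known. All 10 were among the 14020 genes tested, whose mean over the libraries was 1 TPM or more (TPM is a relative transcript abundance, corrected for gene length, with every library brought to one total). The lowest value of any of them was 23.29 TPM, so none depended on one group to pass this filter.

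SK-Hep-1 is a human cell line from a liver tumor that the study describes as endothelial-derived. RNA–Seq of poly-A RNA covered 3 control libraries, titled as carrying a control shRNA although their genotype label is wild type, and 3 libraries labelled as *RAB30-DT* knockdown. Per the methods, the stable lines were made with lentiviral pLKO.1 vectors and puromycin selection. The methods describe 2 knockdown vectors, the labels do not say which of them was used, and nothing says that the replicates were separate cultures, so p-values measure only the spread between these libraries.

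Between 20127 and 21675 genes were above 0 TPM in a library, and read depth is unknown because TPM keep no read number. Library values are given in the order of replicates 1, 2 and 3. *RAB30-DT* itself was at 18.16, 11.51 and 13.91 TPM in control and at 11.94, 10.85 and 6.5 TPM in knockdown libraries, with overlapping groups (log2 fold change −0.55, standard error 0.27, adjusted p = 0.355 from limma). Of 6 hepatocyte markers only *SERPINA1* passed the filter, at 18.11 to 37.19 TPM, while *ALB*, *TTR* and *HNF4A* were at 0 in every library. *AFP* was at 0.41 to 1.63 TPM and *APOA1* at no more than 0.46 TPM. The sum of the 6 markers, most of it *SERPINA1*, was 19.7 to 25.1 TPM in control and 28.7 to 38.1 TPM in knockdown libraries. None of 6 endothelial markers passed it, with *KDR* at 0 in all libraries, *PECAM1* at no more than 0.01 TPM and *TIE1* at up to 3.08 TPM. The 5 mesenchymal markers all passed, from *COL1A1* at 0.59 to 2.41 TPM up to *VIM* at 3793 TPM or more. Of 3 leukocyte markers *PTPRC* and *CD3E* were at 0, whereas *CD68*, also a lysosomal gene, had 28.41 to 66.76 TPM in control and 106.52 to 129.11 TPM in knockdown libraries (adjusted p = 0.0816 from limma). The part of these markers in the results on the 10 genes was not tested.

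RBBP4 and RBBP7 are closely related WD40-repeat proteins that bind histones H3 and H4 and act as shared subunits of several chromatin complexes. In NuRD they sit with the histone deacetylases HDAC1 and HDAC2, the scaffold proteins MTA1 and MTA2 and the remodelling ATPase CHD4. In PRC2 they sit with the methyltransferase EZH2, its partner EED, which reads the mark that EZH2 writes, and SUZ12, which holds the core together. RBBP4 is also the small subunit of chromatin assembly factor CAF-1, and RBBP7 is the partner of the histone acetyltransferase HAT1.

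*RBBP4* (ENSG00000162521.19) is transcribed from the plus strand of chromosome 1 (hg38, 32651142 to 32686211). It had 252.56, 205.66 and 187.76 TPM in the 3 control libraries, and 60.75, 64.23 and 48.52 TPM in the 3 knockdown libraries. Every knockdown library was far below every control library. Control cells averaged 215 ± 33.5 TPM and knockdown cells 57.8 ± 8.25 TPM (SD, n = 3 each), or 26.9% of control. On the log2(TPM + 1) scale the difference was −1.88 with a standard error of 0.18, which placed *RBBP4* at position 31 from the most negative of the 14020 genes. Since this difference chose the list, it carries no p here. In bulk RNA, fewer cells with the transcript and less of it per cell cannot be told apart.

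*RBBP7* (ENSG00000102054.18), on the minus strand of the X chromosome from 16839283 to 16870362, had 128.57, 100.85 and 116.55 TPM in control and 96.2, 86.13 and 78.23 TPM in knockdown libraries. The groups did not overlap, but the gap between them was small beside the spread of the control libraries. Its log2 fold change was −0.40 (standard error 0.16), short of the threshold (adjusted p = 0.269 from limma, with Benjamini–Hochberg adjustment over all 14020 genes and a threshold of 0.05). The RBBP7/RBBP4 ratio was 0.509, 0.490 and 0.621 in control libraries and 1.58, 1.34 and 1.61 in knockdown libraries. *RBBP4* was thus the more abundant paralogue in all 3 control libraries and *RBBP7* in all 3 knockdown libraries. Together they had 304 to 381 TPM in control and 127 to 157 TPM in knockdown libraries, a change of −56.2% in the mean of the sum. The ratio, the order of the paralogues and the sum all contain *RBBP4*, whose difference chose the list. They are descriptions and no result apart from that difference.

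Of the 9 partners, *MTA2* was the one that passed the threshold. *MTA2* (ENSG00000149480.7), on the minus strand of chromosome 11 from 62593214 to 62601865, had 71.05, 84.28 and 84.54 TPM in control and 32.71, 35.24 and 37.59 TPM in knockdown libraries. It fell below every control library, with replicates of both groups close together (80.0 ± 7.71 against 35.2 ± 2.44 TPM, SD, n = 3 each). limma gave a log2 fold change of −1.16 with a standard error of 0.16 and an adjusted p of 0.0256. The call was lost without control replicate 2 (adjusted p = 0.141) and without knockdown replicates 1, 2 or 3 (adjusted p = 0.116, 0.153 and 0.129), whereas the fold change stayed between −1.24 and −1.11. Without a filter on low values the adjusted p was 0.0535.

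*MTA1*, the other scaffold of the pair, had 87.61, 103.93 and 122.07 TPM in control and 84.01, 79.28 and 72.74 TPM in knockdown libraries. The groups did not overlap, though control replicate 1 and knockdown replicate 1 nearly met, and the log2 fold change of −0.40 (standard error 0.17) had an adjusted p of 0.298 from limma. The MTA2/MTA1 ratio was 0.811, 0.811 and 0.693 in control and 0.389, 0.445 and 0.517 in knockdown libraries, lower in every knockdown library. The 3 MTA genes summed to 213 ± 17.7 TPM in control and 143 ± 6.17 TPM in knockdown cells (SD, n = 3 each).

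**Figure D1:**
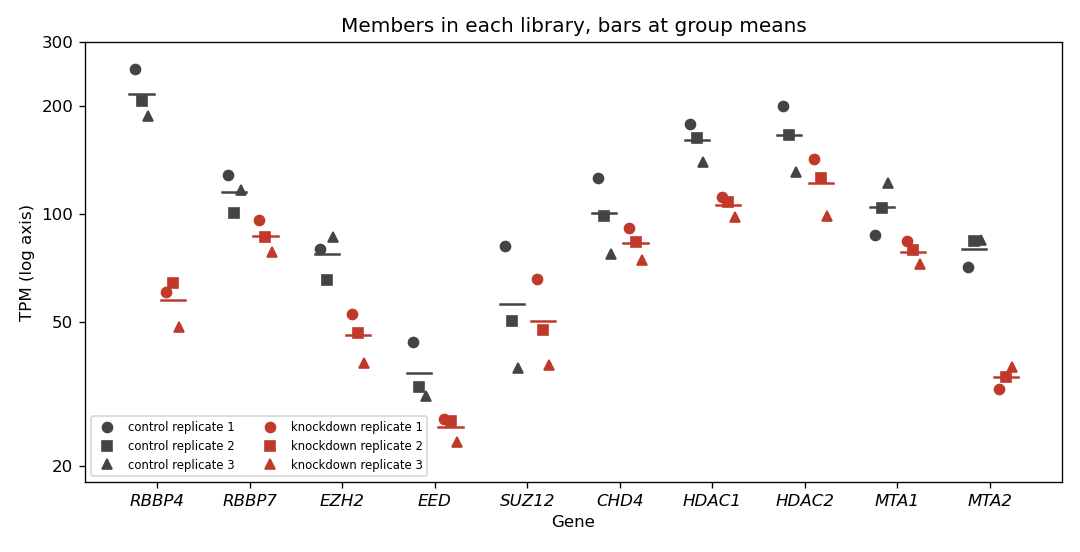
TPM (log axis) of the 10 genes in each of the 6 libraries, control in grey and knockdown in red, with a marker shape for each replicate number and bars at the group means. *RBBP4* (187.76 TPM or more in control, 64.23 or less in knockdown libraries) and *MTA2* (71.05 or more against 37.59 or less) show the widest gaps, while *SUZ12* overlaps throughout.

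Both genes with the widest gaps carry the sequence GAGTGAA in the 3′UTR of their canonical transcript. This 7-base sequence was searched because earlier results of these data had pointed to it, so its presence is a description and no support. *HDAC2* also carries 1 copy and the other 7 genes carry none. Of the 11538 tested protein-coding genes whose canonical 3′UTR reaches 50 bases, 12.5% hold it at least once on the transcribed strand. In 3′UTRs within 20% of the length of that of *RBBP4* (6506 bases) 36.9% hold it, against 3.77% near the length of that of *MTA2* (661 bases) and 45.3% near that of *HDAC2* (8030 bases). The 30 bases around each copy are shown, 5′ to 3′ on the strand of the gene with GAGTGAA in capitals, because *RBBP4* and *MTA2*, the genes with the largest differences of the 10, both have one.
*RBBP4*, chr1:32680443-32680472, plus strand: caagttgagaaGAGTGAAtcaataacttgt
*MTA2*, chr11:62593764-62593793, minus strand: aagggagtgagGAGTGAAttaaggaagaga
*HDAC2*, chr6:113933554-113933583, minus strand: gaatggaatttGAGTGAAatggaatgggaa
The copy begins 749 bases after the stop codon in *RBBP4*, 93 bases after it in *MTA2* and 7486 bases after it, near the far end of the 3′UTR, in *HDAC2*. Binding to these copies was not measured.

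The core PRC2 genes did not pass the threshold. *EZH2* (ENSG00000106462.12, chromosome 7) had 79.96, 65.72 and 86.6 TPM in control and 52.89, 46.62 and 38.48 TPM in knockdown libraries. No knockdown library reached the lowest control library, the mean was 59.4% of that of control, and the log2 fold change of −0.74 (standard error 0.19) had an adjusted p of 0.112 from limma. *EED* (ENSG00000074266.23, chromosome 11), which begins 3.09 Mb beyond the end of *RAB30-DT*, had 44.15, 33.04 and 31.21 TPM in control and 26.91, 26.68 and 23.29 TPM in knockdown libraries. Its groups did not overlap either (log2 fold change −0.47, standard error 0.19, adjusted p = 0.273 from limma). *SUZ12* (ENSG00000178691.11, chromosome 17) had 81.54, 50.34 and 37.3 TPM in control and 65.95, 47.71 and 38.14 TPM in knockdown libraries. Here the replicates of a group lay further apart than the groups, and the log2 fold change of −0.12 (standard error 0.31, adjusted p = 0.885 from limma) became 0.18 without control replicate 1 and 0.07 without knockdown replicate 3.

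The deacetylases were the most abundant partners. *HDAC1* (ENSG00000116478.12), which ends 318 kb before *RBBP4* on the same strand of chromosome 1, had 177.9, 162.93 and 139.85 TPM in control and 111.59, 107.99 and 98.19 TPM in knockdown libraries. The groups did not overlap, and the log2 fold change of −0.59 (standard error 0.15) had an adjusted p of 0.119 from limma. *HDAC2* (ENSG00000196591.12, chromosome 6) had 200.09, 166.11 and 130.72 TPM in control and 142.35, 126.13 and 98.68 TPM in knockdown libraries, which overlapped (log2 fold change −0.43, standard error 0.21, adjusted p = 0.346 from limma). The HDAC1/HDAC2 ratio was 0.980 ± 0.0904 in control and 0.878 ± 0.107 in knockdown cells (SD, n = 3 each) and overlapped between the groups. *CHD4* (ENSG00000111642.16, chromosome 12) had 126.25, 98.5 and 77.43 TPM in control and 91.56, 83.63 and 74.71 TPM in knockdown libraries, with overlap and a log2 fold change of −0.25 (standard error 0.21, adjusted p = 0.576 from limma).

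All 9 partners had a log2 fold change under 0, as did 53.7% of all tested genes, and their median was −0.43 against −0.04 over all tested genes. Of the 9, 1 was called lower, where 0.67% of all tested genes were, and 5 had an unadjusted p under 0.05, where 9.7% of all tested genes were lower at that level. In 6 the knockdown libraries all lay below the control libraries, which held for 13.4% of all tested genes. These are the libraries in which *RBBP4* was noticed, and nothing is read from these counts. The libraries also differed by GC content of the genes, with Spearman's rho across genes between the deviation of a library and transcript GC content of −0.607 and −0.523 in control and knockdown replicate 1, 0.297 and 0.022 in replicate 2, and 0.489 and 0.330 in replicate 3. *EED*, *SUZ12*, *HDAC1*, *HDAC2* and *CHD4*, with transcripts of 37.8% to 51.3% GC, were highest in replicate 1 and lowest in replicate 3 of both groups. *MTA1* and *MTA2*, with 61.6% and 55.5% GC, were lowest in replicate 1 and highest in replicate 3 of the control libraries. In knockdown libraries *MTA2* kept this rising order and *MTA1* had the reverse. *RBBP4*, *RBBP7* and *EZH2* had neither order in both groups. The part of GC content in these orders was not tested.

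After the GC trend of each library was removed, the differences hardly moved and their errors shrank for several genes. In that fit *EZH2* (−0.75, adjusted p = 0.0345), *HDAC1* (−0.59, adjusted p = 0.0190), *HDAC2* (−0.48, adjusted p = 0.0308), *EED* (−0.48, adjusted p = 0.0379) and *MTA2* (−1.11, adjusted p = 0.00326) passed the threshold in limma. That is 5 of 9 called lower, where 4.89% of all tested genes were called lower. *RBBP7* (−0.42, adjusted p = 0.0709), *MTA1* (−0.30, adjusted p = 0.241), *CHD4* (−0.23, adjusted p = 0.455) and *SUZ12* (−0.16, adjusted p = 0.486) did not pass it in the fit without the GC trend. With limma's arrayWeights, which give less weight to more variable libraries, 5 of 9 were called lower, where 13.8% of all tested genes were. Here *MTA1* (−0.39, adjusted p = 0.0296) stood in place of *EED* (−0.36, adjusted p = 0.0644). The weights were 0.325, 3.00 and 0.316 for control and 0.779, 4.39 and 0.948 for knockdown libraries. Replicate 2 of each group thus carried most of the weight, and every count with arrayWeights rests mainly on these libraries.

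**Figure D2:**
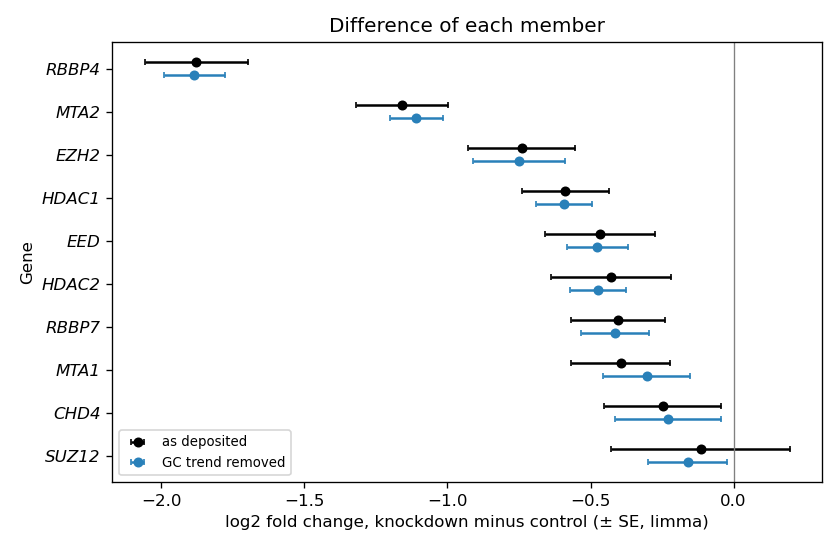
log2 fold change of each gene (knockdown minus control, on the log2(TPM + 1) scale) with its standard error from limma, for the values as deposited (black) and with the GC trend of each library removed (blue). *RBBP4* (−1.88) and *MTA2* (−1.16) lie apart from the other 8 genes, which run from −0.74 for *EZH2* to −0.12 for *SUZ12*, and the 2 sets of points nearly coincide.

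TPM are scaled for length, so the levels of the 10 genes were set in order. No GC trend was removed for this order, although the transcripts run from 37.8% GC in *HDAC2* to 61.6% in *MTA1*. In control cells *RBBP4* had the highest mean, followed by *HDAC2* (166 ± 34.7 TPM), *HDAC1* (160 ± 19.2), *RBBP7* (115 ± 13.9), *MTA1* (105 ± 17.2), *CHD4* (101 ± 24.5), *MTA2*, *EZH2* (77.4 ± 10.7), *SUZ12* (56.4 ± 22.7) (SD, n = 3 each) and *EED* (36.1 TPM). Of the 9 neighbouring pairs only *HDAC1* and *RBBP7* had ranges that did not overlap. In knockdown cells *RBBP4* stood at position 6 by its mean. Above it were *HDAC2* (122 ± 22.1 TPM), *HDAC1* (106 ± 6.93), *RBBP7* (86.9 ± 9.01), *CHD4* (83.3 ± 8.43) and *MTA1* (78.7 ± 5.66). Below it were *SUZ12* (50.6 ± 14.1), *EZH2* (46.0 ± 7.23), *MTA2* and *EED* (25.6 ± 2.03 TPM, SD, n = 3 each). The range of *RBBP4* (48.52 to 64.23 TPM) did not overlap that of *MTA1* but lay within that of *SUZ12* (38.14 to 65.95 TPM). The mean of *MTA2* was just above that of *EZH2* in control cells, where their ranges overlapped. *EZH2* was the higher of the pair in control replicate 1 (79.96 against 71.05 TPM) and replicate 3 (86.6 against 84.54 TPM). In knockdown cells *MTA2* lay below *EZH2* with no overlap of their ranges.

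**Figure D3:**
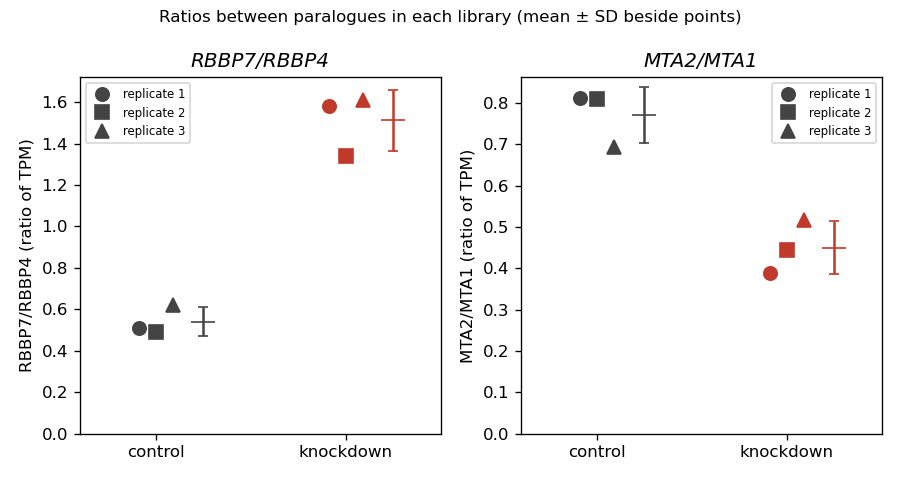
Ratio of TPM between the paralogues *RBBP7* and *RBBP4* (left) and *MTA2* and *MTA1* (right) in each library, with the mean ± SD of each group beside the points and both axes starting at 0. RBBP7/RBBP4 is 0.490 to 0.621 in control cells and 1.34 to 1.61 with knockdown, and MTA2/MTA1 is 0.693 to 0.811 in control cells and 0.389 to 0.517 with knockdown. The left ratio contains *RBBP4*, whose difference chose the list, and is a description.

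Other genes share sequence or position with the members. Of 12 annotated pseudogenes of the 10 genes, 7 were at 0 in every library and *SUZ12P1* alone exceeded 1 TPM, with 4.09 to 8.03 TPM, so the split of reads between *SUZ12* and this copy is uncertain. *SYNC*, which overlaps *RBBP4* on the opposite strand, had 5.43 to 15.72 TPM, and *TXLNG*, opposite *RBBP7*, had 8.02 to 15.3 TPM. *HDAC2-AS2*, opposite *HDAC2*, had at most 5.77 TPM, and the other overlapping genes above 1 TPM in any library were a Metazoa_SRP copy in *EZH2* (at most 3.85 TPM), ENSG00000288809 at *EED* (at most 3.1 TPM), ENSG00000257270 at *MTA1* (at most 2.13 TPM) and ENSG00000285238, on the same strand as *CHD4* (at most 1.54 TPM). Whether the counting used strand is not given in the sources used here, so reads of these overlapping genes cannot be told apart.

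The 10 genes whose profile over the 6 libraries lay closest to that of *RBBP4* (Euclidean distance between log2(TPM + 1) values centred per gene) were at distances of 0.346 to 0.543. They were *PADI2*, a peptidylarginine deiminase, *ASH2L*, a subunit of the COMPASS histone methyltransferases, *PRPS2*, an enzyme of nucleotide synthesis, *EIF4EBP2*, a repressor of translation, *CLU*, which encodes clusterin, *DYNLT2B*, *GPD2*, the mitochondrial glycerol-3-phosphate dehydrogenase, and ENSG00000280614, ENSG00000280800 and ENSG00000281181. The last of these had identical TPM in every library and are counted as 1 uncertain measurement. *PADI2* was at 9.52 ± 1.62 and 1.88 ± 0.469 TPM and *ASH2L* at 31.1 ± 0.673 and 7.90 ± 0.667 TPM in control and knockdown cells (SD, n = 3 each). Of the 7 with a 3′UTR that was searched, 4 hold GAGTGAA, where 12.5% of all searched genes do, and the 3′UTR of *EIF4EBP2*, with 6871 bases, is of the length class of *RBBP4*, in which 36.9% do. The 10 were picked by the same values of *RBBP4* that chose the list, so this count is a description and no support. Among the partners *MTA2* was the closest to *RBBP4*, at rank 81 of 14019 other genes, followed by *EZH2* at rank 338 and *HDAC1* at rank 571, and *SUZ12* was the farthest at rank 5302. The partners stood in the same order by log2 fold change. Their ranks also use the values of *RBBP4* that chose the list, so they are a description and no separate result.

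Beyond the 10 genes, 9 lists of subunits from complexes that contain RBBP4, RBBP7 or the deacetylases, or that act beside PRC2, held 64 genes, of which 62 were tested. None was called by limma, where 1.04% of all tested genes were. At an unadjusted p under 0.05 there were 8 of 62, all lower, where 9.7% of all tested genes were lower and 16.8% passed in either direction. Of the 62 genes, 46 were lower and 16 higher, with a median log2 fold change of −0.18. Without overlap of the groups, 12 were lower and 1, *JARID2* of PRC2, higher (adjusted p = 0.338), which held for 13.4% and 9.89% of all tested genes. With the GC trend removed 7 were called, all lower, where 4.89% of all tested genes were called lower and 8.86% in either direction. With limma's arrayWeights 10 were called lower and 1 higher, where 13.8% of all tested genes were called lower and 23.0% in either direction.

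The list whose median lay farthest below that of all genes was that of the histone chaperones and HAT1, which deposit or modify new histones together with RBBP4 or RBBP7. All 5 were lower, with a median of −0.65, and none passed the threshold. *CHAF1A*, the large subunit of CAF-1, had 33.91, 40.49 and 47.72 TPM in control and 22.01, 21.77 and 21.99 TPM in knockdown libraries. The knockdown libraries were nearly alike and well below the control libraries (log2 fold change −0.85, standard error 0.18, adjusted p = 0.0761 from limma). *ASF1B* went from 72.4 ± 17.3 to 44.2 ± 7.61 TPM (SD, n = 3 each), with an adjusted p of 0.187 from limma. With the GC trend removed all 5, namely *CHAF1A*, *CHAF1B*, *ASF1A*, *ASF1B* and *HAT1*, were called lower, where 4.89% of all tested genes were, and with arrayWeights 4 of them, without *HAT1*, where 13.8% were. This list was singled out for its median, and nothing is read from these counts.

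In the remaining subunits of NuRD, 5 of 8 were lower (median −0.16), led by *CHD5*, a CHD4 paralogue at 3.01 TPM or less in each library (log2 fold change −0.86, adjusted p = 0.283), and *MBD3*, the methyl-CpG-binding family subunit (−0.39, adjusted p = 0.636). In those of PRC2, 6 of 8 tested were lower (median −0.26), led by *PHF19*, a Polycomb-like subunit that guides PRC2 to chromatin (−0.66, adjusted p = 0.142), and *LCOR* (−0.48, adjusted p = 0.378). *PHF19* had 107.13, 88.31 and 133.16 TPM in control and 60.98, 73.68 and 69.29 TPM in knockdown libraries, without overlap. *EZH1*, the paralogue of *EZH2*, had 23.6 ± 4.49 and 19.9 ± 2.78 TPM (SD, n = 3 each, adjusted p = 0.611), and *EZH1* and *EZH2* together had 87.36 to 108.67 TPM in control and 55.36 to 75.24 TPM in knockdown libraries. These p-values, and those that follow for lists, are from limma.

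In the SIN3 complex, another deacetylase complex with RBBP4, 12 of 13 genes were lower with a median of −0.16, led by *ING1* (−0.56, adjusted p = 0.370) and *SAP30L* (−0.52, adjusted p = 0.359). In the MuvB core of cell cycle regulation, to which RBBP4 also belongs, and *MYBL2* all 5 had a log2 fold change under 0, with a median of −0.17. Farthest from 0 were *MYBL2* (−0.67, adjusted p = 0.152) and *LIN9* (−0.39, adjusted p = 0.529). *LIN37* was at −0.005, with nearly equal mean TPM of 17.80 in control and 17.84 in knockdown cells. Both NURF genes had a log2 fold change above 0, *BPTF* of 0.19 (adjusted p = 0.776) and *SMARCA1* of 0.09 (adjusted p = 0.919). The mean TPM of *SMARCA1* were nearly equal, at 47.7 in control and 47.5 in knockdown cells. Of the CoREST genes *KDM1A* had −0.35 (adjusted p = 0.337) and *RCOR3* 0.20 (adjusted p = 0.761). Of the other class I deacetylases *HDAC8* had −0.63 (adjusted p = 0.124) and *HDAC3* −0.05 (adjusted p = 0.885). The 16 PRC1 genes had a median of −0.04, equal to that of all tested genes at 2 decimals, and the value farthest from 0 was that of *CBX2* (−0.58, adjusted p = 0.286).

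The HOX genes, developmental transcription factors that PRC2 silences in many cell types, were read as a group of known targets. Of 39 HOX genes 24 were tested, 15 were higher and 9 lower, and the median log2 fold change was 0.12. None passed the threshold in limma, with the GC trend removed or with arrayWeights, where 1.04%, 8.86% and 23.0% of all tested genes did. At an unadjusted limma p under 0.05 there was 1, where 16.8% of all tested genes passed. This was *HOXA3*, with 2.42, 2.91 and 1.98 TPM in control and 6.09, 3.88 and 4.44 TPM in knockdown libraries (log2 fold change 0.75, standard error 0.25, adjusted p = 0.194). Its groups did not overlap. Of the tested HOX genes 2 were higher and 2 lower without overlap of the groups, where 9.89% and 13.4% of all tested genes were. *HOXA13* was next, at 0.42 (adjusted p = 0.539), with low values of 0.53 to 2.35 TPM.

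**Figure D4:**
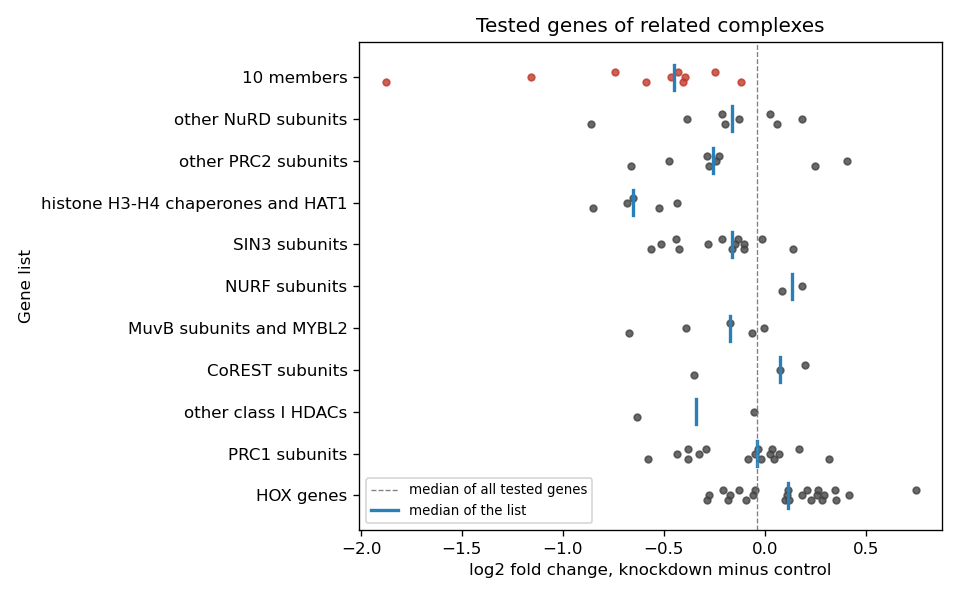
log2 fold change (knockdown minus control) of every tested gene in the list of 10 and in the lists of related complexes and HOX genes, 1 point a gene, with the median of each list in blue and that of all tested genes (−0.04) as a dashed line. The medians run from −0.65 for the histone chaperones and HAT1 to 0.14 for the NURF genes, and no gene outside the 10 lies below −0.86.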

How the data were processed

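RNA–Seq libraries of 3 control and 3 *RAB30-DT* knockdown samples of SK–Hep–1 cells were grouped by their titles. Per the methods, the authors trimmed reads with fastp (v0.23.2), aligned them with STAR (v2.7.10b) to GENCODE Release 45, used samtools (v0.1.9) and quantified with RSEM (v1.3.0); the submitters' processing notes name HISAT2 (2.0.5) and hg38 instead. The authors deposited TPM per gene, rounded to 2 decimals. All 62700 versioned identifiers were found in Release 44, used here for symbols, positions and 3′UTRs; the 3 printed windows were equal to hg38. Sequences come from the GENCODE transcripts.

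TPM were analysed as log2(TPM + 1) with limma 3.58.1 in R 4.3.3 (lmFit, eBayes with trend, 2-sided, no covariate) with Benjamini–Hochberg adjustment over the 14020 genes that averaged 1 TPM or more. GC trends were removed by loess (span 0.3) on the GC content of the canonical transcript. The fit was run on simulated data with independent noise for each gene and library. That simulation held no GC trend and no deviations shared between libraries, so it cannot speak to their effect. Depth is unknown, so precision rests on 3 libraries a group. The members, lists and alternatives (pseudocounts, filters, scalings, eBayes without trend, arrayWeights, replicate block, GC trend, single libraries left out, thresholds) were chosen with earlier results of these data known. Named were the 10 genes, *RAB30-DT*, overlapping genes and pseudogenes above 1 TPM, called genes of the lists, up to 2 genes a list with the largest absolute log2 fold change, and the 10 genes nearest to *RBBP4*. One gene that this rule names is not reported here. *ALB* and other markers, *EZH1*, *JARID2*, *CHAF1B*, *ASF1A*, *HAT1* and *LIN37* were named after their values were seen. Libraries sharing a replicate number had correlated deviations (0.410, 0.0359 and 0.279 for numbers 1, 2 and 3), not all above 0.1, and were treated as unpaired.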

Additional observations from a re-analysis of the deposited data

How the results depend on the processing

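The difference of *RBBP4* stayed between −1.97 and −1.71 under every alternative and moved by less than 1 SD between replicates. The log2 fold change of *SUZ12*, not past the threshold in any fit, changed sign without control replicate 1 (0.18) and without knockdown replicate 3 (0.07), and ran from −0.37 to 0.18 over the fits that left out a library. The other 8 partners stayed lower in all fits.

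The counts of calls depended on the fit. Against 146 genes called, 94 of them lower, 1 of 9 partners and 0 of 62 other complex genes, arrayWeights called 3218, 1931, 5 and 11, removal of the GC trend 1242, 686, 5 and 7, and no filter 13, 9 and 0 (with no complex gene). eBayes without trend called 57 genes lower, and 16 genes had an adjusted p under 0.01. Across the fits that left out a library the counts ran from 12 to 489 genes, 6 to 307 lower, 0 to 1 partner and 0 to 2 complex genes. The cause was not tested. Median-of-ratios scaling gave 68 higher and 68 lower and quantile normalization 78 and 83, against 52 and 94.

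With a replicate block 861 genes (550 lower), 2 partners (*MTA2* and *HDAC1*) and 3 complex genes were called, and with the block and the GC trend removed together 1074 (627 lower), 3 and 6. In the latter fit *EZH2* (adjusted p = 0.0538) and *EED* (adjusted p = 0.0640) lost the calls that removal of the GC trend alone gave them, at log2 fold changes of −0.75 and −0.48 in both fits. Of the histone chaperones and HAT1, 2 of 5 (*ASF1B* and *CHAF1A*) were called with the block alone. Of all tested genes 3.92% and 4.47% were called lower in these fits. Of the 6 libraries 4 correlated best with the library of the same number in the other group. The pairing is a hint of the data and not of the design.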
